A study of Mus musculus with 10 samples.

Results

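The glycolysis genes described here are Hk1, Hk2, Pfkl, Pfkfb3, Aldoa, Gapdh, Pgk1, Eno1, Pkm and Ldha, 10 genes of the 55487 in the expression table, chosen by gene name for their place in the pathway that turns glucose into pyruvate and lactate. Their RNA was measured by RNA-seq in intestinal epithelial cells (IECs) released from the colon of 5 WT and 5 RhoB-/- mice, 1 library per mouse. Both groups were C57BL/6J, no treatment is given in the labels, and the RhoB-/- mice were made as a knockout of the small GTPase RhoB in the whole animal and not in the epithelium alone. Mice were used at 6 to 8 weeks of age unless otherwise stated. The methods describe the WT animals as purchased males and the knockouts as made at another centre, so that genotype and the origin of the mice cannot be told apart, and p-values cover the spread between these mice only.

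Glycolysis runs in the cytosol. Hexokinases trap glucose as glucose-6-phosphate, phosphofructokinase commits it to breakdown, and its later steps yield ATP, NADH and pyruvate, which lactate dehydrogenase can reduce to lactate. Mature colonocytes draw much of their energy from oxidising butyrate made by gut bacteria, and several of these enzymes exist as isozymes that differ in tissue distribution and regulation.

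Values are in TPM (transcripts relative to a fixed total), which are scaled for transcript length and compare genes within a library, but give each gene relative to the rest of the library. Column totals were between 971400 and 993200 TPM, and read depth cannot be read from TPM. Rhob itself was at 170.5 to 388.7 TPM in the WT libraries and at 0.09, 0.10, 0.35 and 0.57 TPM in 4 RhoB-/- libraries, whereas the library labelled RhoB-/- replicate 5 held 110.9 TPM, which goes against its label, so results that rest on this library are also given without it. All 8 epithelial markers were detected, whereas the 6 B and plasma cell markers and the 6 endothelial markers each averaged below 1 TPM over the 10 libraries. Summed B and plasma cell markers were nevertheless at 0.18 to 1.01 TPM in WT and 0.99 to 14.1 TPM in RhoB-/- libraries, and macrophage and neutrophil markers at 2.96 to 10 and 4.45 to 21.9 TPM. Summed T cell markers were at 5.99 to 13.1 TPM in WT and 20.7 to 30.5 TPM in RhoB-/- libraries, fibroblast markers at 8.06 to 11.1 and 12.0 to 53.7 TPM, goblet cell markers at 13800.0 to 15910.0 and 16250.0 to 19210.0 TPM, and heat shock chaperones at 3858 to 5055 and 1119 to 1961 TPM, and in these 4 sums the groups did not overlap. The library labelled RhoB-/- replicate 5 held the highest sums of the B and plasma cell, macrophage and neutrophil, and fibroblast markers. The part of these markers in the results on glycolysis was not tested.

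Differences between genotypes were tested with limma after a log2(TPM + 1) transform. Genes averaging at least 1 TPM entered the fit, 12870 in number, and a gene was called at a Benjamini-Hochberg adjusted p below 0.05. All 10 glycolysis genes passed this filter. Hk2, Eno1, Pkm and Ldha rose in RhoB-/- IECs, none of the 10 fell, and 6 were not called. Over all tested genes, 7.73% were called higher and 13.5% lower. Of the 2149 genes with a mean of at least 50 TPM, a group chosen after the data were seen because 9 of the 10 glycolysis genes belong to it, 15.1% were called higher and 7.72% lower. The log2 fold change was positive for 9 of the 10, against 34.6% of all tested genes and 51.7% of the abundant ones. The 10 genes were chosen with earlier results of these data known, so setting them beside these shares is a description and not a test. The median log2 fold change of the 10 genes was 0.27, that of all tested genes -0.13 and that of the abundant genes 0.01. When instead a fold of more than 1.5 in either direction was asked for together with p below 0.05 before adjustment, Hk2 alone passed, where 6.37% of all tested genes did so upward and 8.33% downward. In such bulk samples, more cells of a type and more RNA per cell cannot be told apart.

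**Figure D1:**
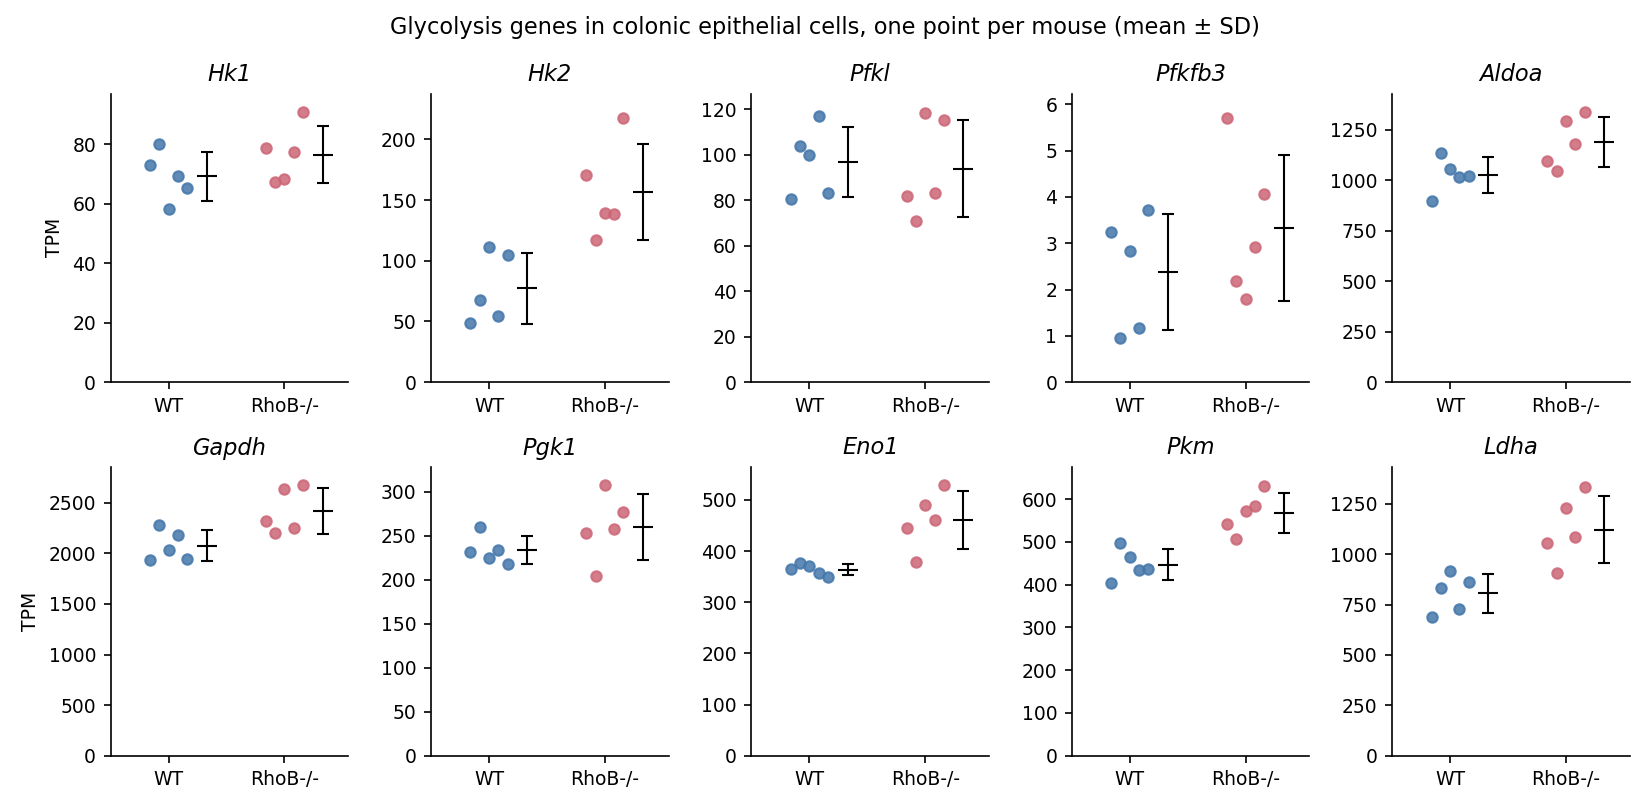
TPM of each glycolysis gene (vertical axis, from 0) in the 5 WT and 5 RhoB-/- libraries, with 1 point per mouse and the mean ± SD beside the points. The groups do not overlap for Hk2, Eno1 and Pkm, whereas those of Hk1, Pfkl, Pfkfb3, Aldoa, Gapdh, Pgk1 and Ldha do.

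Of the 10 genes, Hk2 showed the largest difference. Hk2 (ENSMUSG00000000628, GRCm38 chromosome 6, 82725025 to 82774454, minus strand) encodes the insulin-responsive hexokinase that binds the mitochondrial outer membrane. In WT replicates 1 to 5 it was at 48.5, 67.7, 112, 54.3 and 105 TPM, and in RhoB-/- replicates 1 to 5 at 171, 117, 139, 139 and 218 TPM. Every RhoB-/- library was above every WT library, which held for 5.97% of all tested genes, while the reverse order held for 8.55%. The WT libraries themselves fell apart, with replicates 3 and 5 close to the lowest RhoB-/- library and the other 3 far below. The means were 77.4 ± 29.1 and 156.7 ± 39.3 TPM (SD, n = 5 each), and the log2 fold change was 1.06 (SE 0.25, 95% interval 0.52 to 1.59, limma adjusted p = 0.012). Without the library labelled RhoB-/- replicate 5 it was 0.93 with an adjusted p of 0.0313, and the call was kept when any other single library was left out.

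Hk1 (chromosome 10, 62268855 to 62379908, minus strand), the hexokinase found in most tissues, was at 58.1 to 80.0 TPM in WT and 67.2 to 90.8 TPM in RhoB-/- libraries. These ranges overlapped, and the log2 fold change of 0.14 (95% interval -0.11 to 0.40, adjusted p = 0.403) was not called. Hkdc1, a further member of the hexokinase family expressed in epithelia, rose from 25.4 ± 5.66 to 45.5 ± 12.3 TPM (log2 fold change 0.80, SE 0.20, adjusted p = 0.015). Hk3 stayed below 1 TPM in all libraries. The summed RNA of Hk1, Hk2, Hk3 and Hkdc1 was 144.9 to 202.6 TPM in WT and 229.1 to 369.4 TPM in RhoB-/- libraries, with no overlap. Hk1 was the largest part of it in WT replicates 1, 2 and 4, at 50.4%, 47.8% and 47.8%. Hk2 was the largest part in WT replicates 3 and 5 and in all 5 RhoB-/- libraries, at 51.1% to 61.0% in the latter.

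**Figure D2:**
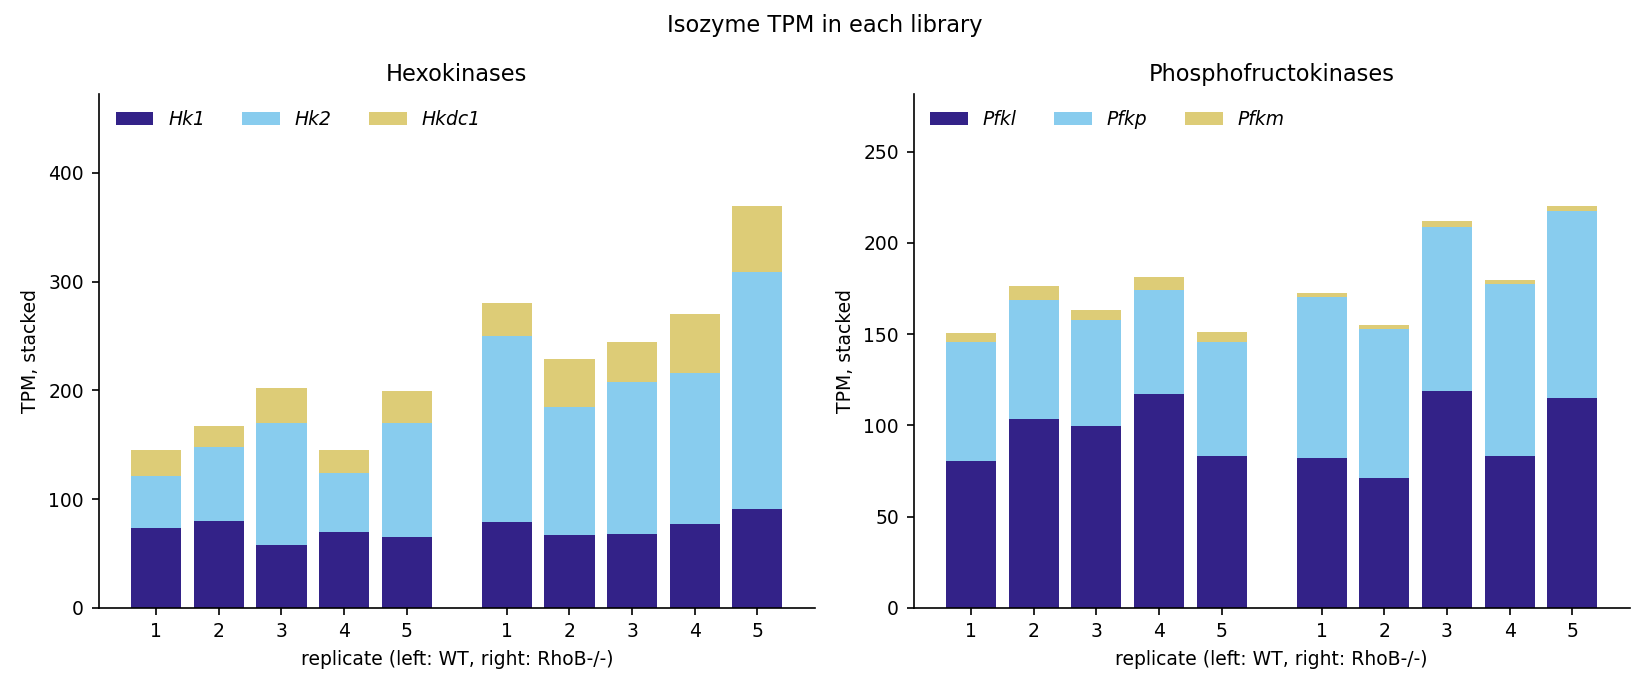
Stacked TPM of hexokinase (left) and phosphofructokinase (right) isozymes in each library, with WT replicates 1 to 5 on the left of each panel and RhoB-/- replicates 1 to 5 on the right. The Hk2 segment is larger in every RhoB-/- library than in any WT library, Hk1 and Pfkl segments overlap between genotypes, and the Pfkp segment is larger and the Pfkm segment smaller in every RhoB-/- library.

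At the phosphofructokinase step, total RNA of the 3 isozymes overlapped between genotypes but its makeup differed. Pfkl (chromosome 10, 77986947 to 78010083, minus strand), the liver type, was at 80.5, 104, 99.8, 117 and 83.2 TPM in WT and at 82.0, 70.9, 119, 83.4 and 115 TPM in RhoB-/- libraries. Its log2 fold change was -0.06 (95% interval -0.41 to 0.30, adjusted p = 0.820), and its sign turned when the libraries were centred on their medians, so no direction is given. Pfkp, the platelet type, rose from 61.5 ± 3.76 to 91.3 ± 7.64 TPM without overlap (log2 fold change 0.56, SE 0.09, adjusted p = 0.00194). Pfkm, the muscle type, fell from 6.10 ± 1.11 to 2.56 ± 0.479 TPM, also without overlap (log2 fold change -0.99, SE 0.14, adjusted p = 6.23e-04). As shares of phosphofructokinase TPM, Pfkm was 3.28% to 4.37% in WT and 1.12% to 1.57% in RhoB-/- libraries, and Pfkp was 31.5% to 43.3% and 42.5% to 52.7%. Pfkp made up a larger share than Pfkl in RhoB-/- replicates 1, 2 and 4.

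Pfkfb3 (chromosome 2, 11471433 to 11554077, minus strand) makes fructose-2,6-bisphosphate, the activator of phosphofructokinase, and is the glycolysis gene with the lowest level. It was at 3.25, 0.96, 2.84, 1.16 and 3.72 TPM in WT and at 5.70, 2.18, 1.80, 2.91 and 4.06 TPM in RhoB-/- libraries. The groups overlapped, its coefficient of variation was 52.5% in WT and 47.5% in RhoB-/- mice, and the log2 fold change was 0.37 (95% interval -0.29 to 1.03, adjusted p = 0.401). Pfkfb4 was the most abundant of the 4 Pfkfb genes in every library, at 51.0% to 74.9% of their TPM. None of Pfkfb1, Pfkfb2, Pfkfb4 and Tigar, which breaks the same activator down, was called.

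In the middle of the pathway, Aldoa, Gapdh and Pgk1 were not called. Aldoa (ENSMUSG00000030695, chromosome 7, 126795234 to 126800751, minus strand), which splits fructose-1,6-bisphosphate, was at 895, 1137, 1057, 1018 and 1021 TPM in WT and 1095, 1045, 1292, 1180.0 and 1339 TPM in RhoB-/- libraries. RhoB-/- replicates 1 and 2 were below the highest WT library, and the log2 fold change was 0.21 (95% interval -0.04 to 0.46, adjusted p = 0.197). A further row named Aldoa (ENSMUSG00000114515, chromosome 7, 126800790 to 126809108), next to the main gene, was at 0.61 to 1.83 TPM in WT and 0 to 0.80 TPM in RhoB-/- libraries. It was below the filter, and its exact two-sided permutation p over all labellings of the libraries was 0.0317, unadjusted.

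Gapdh (chromosome 6, 125161715 to 125166467, minus strand), which makes the NADH of the pathway and often serves as a reference gene, was the most abundant of the 10. It was at 1932, 2279.6, 2036, 2185 and 1946 TPM in WT and 2316, 2199, 2638, 2248 and 2681 TPM in RhoB-/- libraries. RhoB-/- replicates 2 and 4 lay within the WT range. The log2 fold change was 0.22 (95% interval -0.03 to 0.46, adjusted p = 0.182). Pgk1 (chromosome X, 106187100 to 106203699, plus strand), which makes the first ATP of the pathway, was at 218 to 260 TPM in WT and 204 to 307 TPM in RhoB-/- libraries, so the RhoB-/- range enclosed the WT range (log2 fold change 0.14, 95% interval -0.11 to 0.40, adjusted p = 0.399).

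Eno1, Pkm and Ldha, which act at the end of the pathway, rose. Eno1 (chromosome 4, 150236721 to 150248879, plus strand), which makes phosphoenolpyruvate, was at 365, 377, 372, 357 and 349 TPM in WT and 446, 378, 491, 462 and 529 TPM in RhoB-/- libraries. The groups were separated by little more than 1 TPM, between WT replicate 2 at 376.8 and RhoB-/- replicate 2 at 377.9, while the other 4 RhoB-/- libraries lay well above. The WT mice varied by 3.07% (coefficient of variation) and the RhoB-/- mice by 12.2%. The log2 fold change was 0.33 (SE 0.11, 95% interval 0.10 to 0.57, adjusted p = 0.0457).

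Pkm (chromosome 9, 59656368 to 59679375, plus strand), the pyruvate kinase whose M1 and M2 forms are summed in 1 row of the table, was at 404, 497, 466, 433 and 436 TPM in WT and 543, 507, 573, 584 and 632 TPM in RhoB-/- libraries. The groups did not overlap, and the log2 fold change was 0.34 (SE 0.10, 95% interval 0.12 to 0.57, adjusted p = 0.0352). Pkm was 81.4% to 86.9% of pyruvate kinase TPM in WT and 85.9% to 90.2% in RhoB-/- libraries, the rest being Pklr, which was not called.

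Ldha (chromosome 7, 46841475 to 46855627, plus strand), which turns pyruvate into lactate, was at 688, 830, 918, 729 and 860 TPM in WT and 1056, 906, 1231, 1084 and 1332 TPM in RhoB-/- libraries. RhoB-/- replicate 2 was just below WT replicate 3, and the other 4 RhoB-/- libraries were above all WT libraries. The log2 fold change was 0.47 (SE 0.13, 95% interval 0.18 to 0.76, adjusted p = 0.0271). Ldhb fell (log2 fold change -0.61, adjusted p = 0.0491) from a far lower level, so that Ldha was 99.2% to 99.5% of the TPM of both in WT and 99.5% to 99.8% in RhoB-/- libraries.

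The calls of Eno1, Pkm and Ldha depended on single libraries and settings, while their direction did not turn in any fit. Without the library labelled RhoB-/- replicate 5, the log2 fold changes of Ldha, Pkm and Eno1 were 0.41, 0.30 and 0.28 with limma adjusted p of 0.0657, 0.0807 and 0.103, and Hk2 alone of the 10 was called. In that fit, 719 of 12850 tested genes were called higher and 1116 lower. Over the 10 fits that left out 1 library, Eno1 was called without RhoB-/- replicate 2 or 3, Pkm without those or WT replicate 2, and Ldha without RhoB-/- replicate 2 or 3 or WT replicate 3 or 5. Without the filter on low TPM, Eno1, Pkm and Ldha were not called (adjusted p = 0.0643, 0.0505 and 0.0683). With each library centred on the median deviation of the tested genes, which moved the median log2 fold change of all genes from -0.13 to -0.01, Aldoa, Gapdh and Pgk1 also passed and 7 of the 10 were called higher, at adjusted p of 0.00691, 0.00725 and 0.0152 for these 3. Under that scaling 2010 of all tested genes were called higher and 1645 lower, against 995 and 1734 without it.

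**Figure D3:**
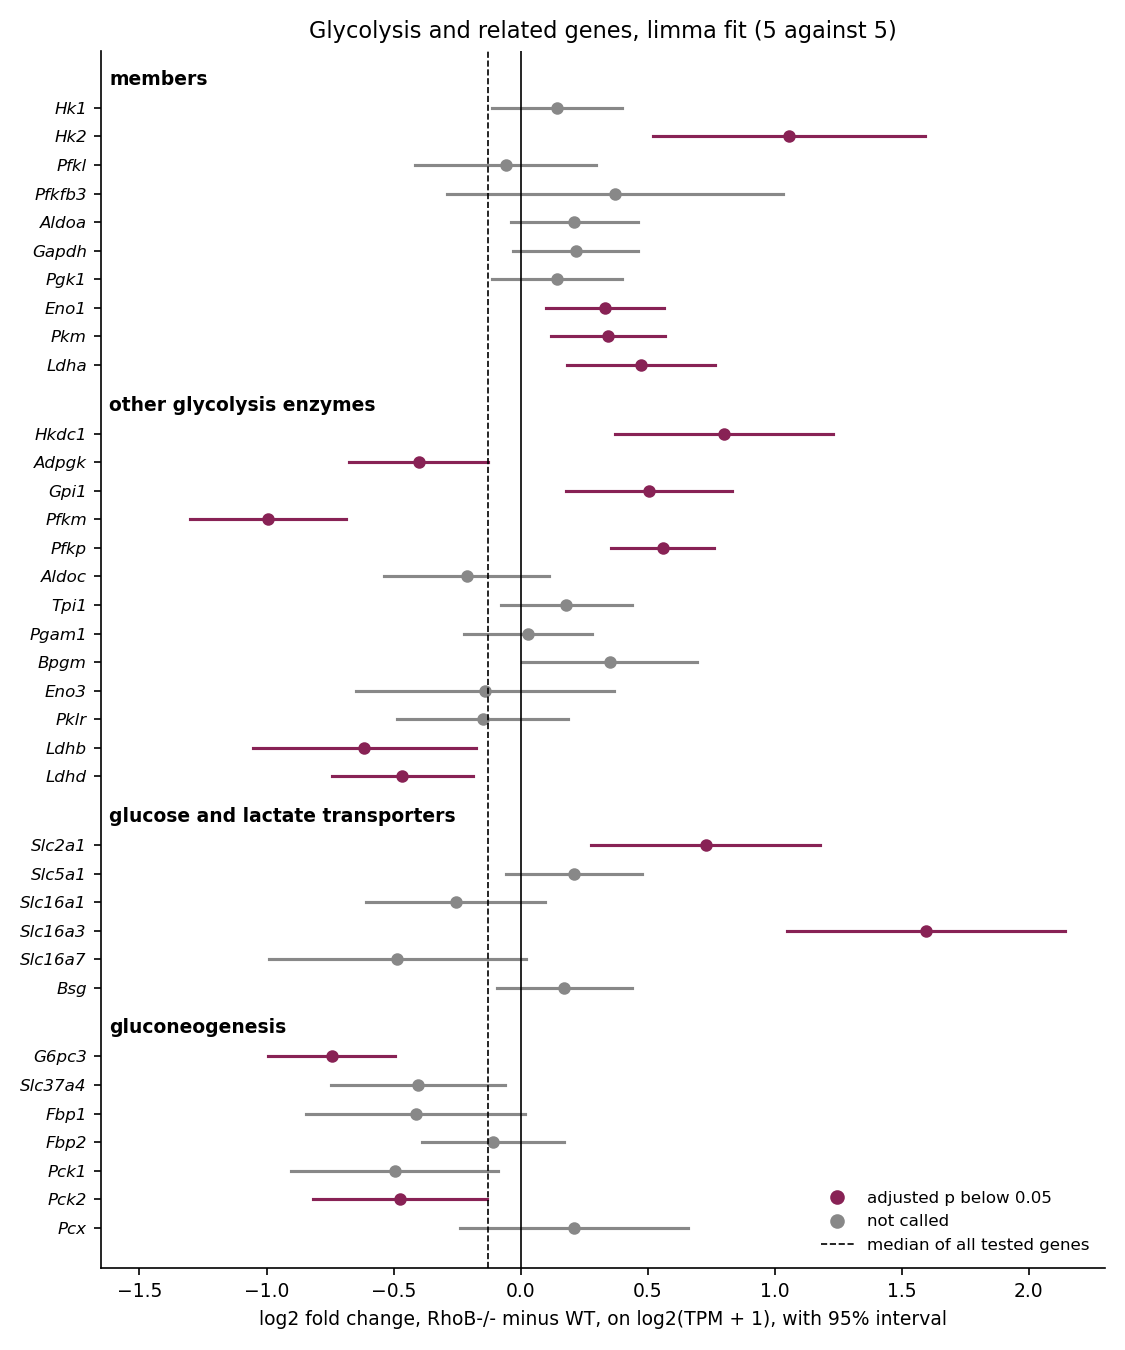
Log2 fold change (RhoB-/- minus WT, horizontal axis) with its 95% interval from the limma fit for the tested glycolysis genes, other glycolysis enzymes, transporters and gluconeogenesis genes, coloured by an adjusted p below 0.05. Of the 10 members in the top block, Hk2, Eno1, Pkm and Ldha are called, and the dashed line marks the median of all tested genes at -0.13.

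The order of levels was nearly the same in both genotypes. In WT it ran Gapdh, Aldoa, Ldha, Pkm, Eno1, Pgk1, Pfkl, Hk2, Hk1 and Pfkfb3, from 2076 down to 2.39 TPM, and the ranges of Aldoa and Ldha, of Pfkl and Hk2, and of Hk2 and Hk1 overlapped. In RhoB-/- libraries Hk2 stood above Pfkl, on average at 156.7 against 94.0 TPM, and its range overlapped those of both Pgk1 above it and Pfkl below it. Named copies of Eno1, Gapdh and Ldha in the table summed to 0.35 to 1.78 TPM per library, so that reads given to those copies could change the parent genes little, but copies without such names were not counted.

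**Figure D4:**
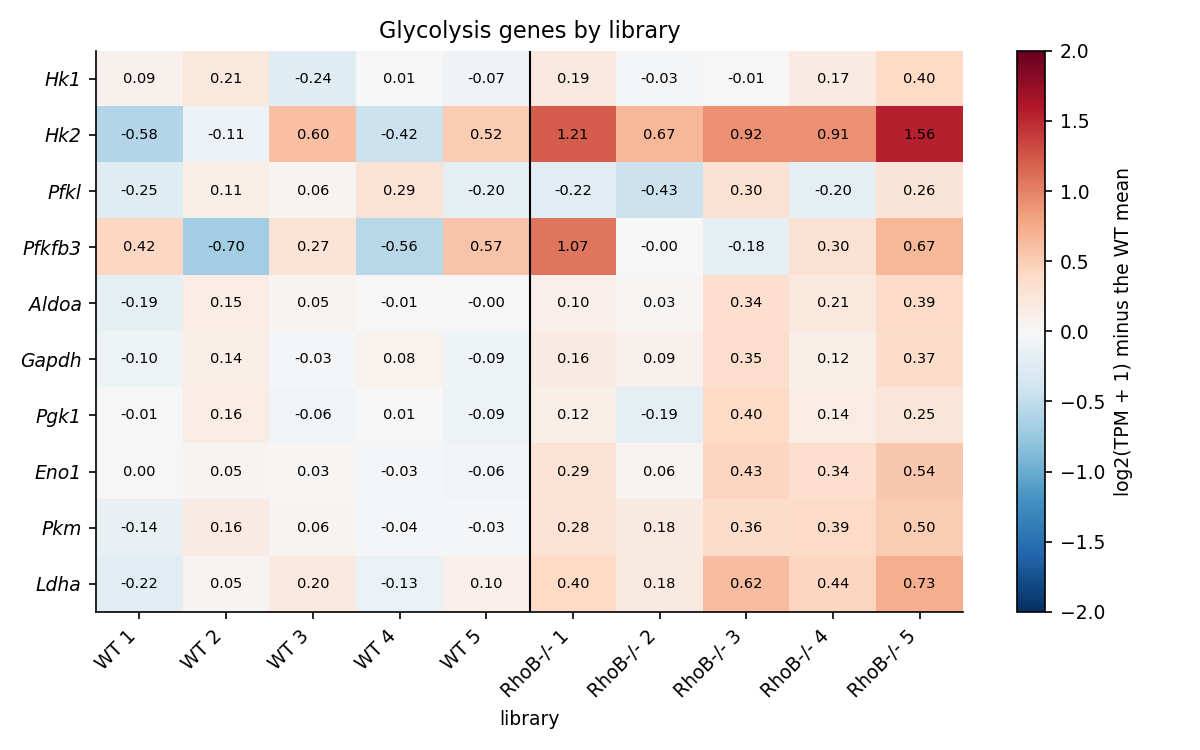
Log2(TPM + 1) of each glycolysis gene (rows) in each library (columns), as the difference from the mean of the 5 WT libraries, with the value printed in each cell. Hk2 carries the largest differences, up to 1.56 in RhoB-/- replicate 5, and RhoB-/- replicate 2 is the lowest RhoB-/- library for 9 of the 10 genes.

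Some libraries were high or low in most of the 10 genes at once. The library labelled RhoB-/- replicate 5 was the highest of its group for 7 genes and RhoB-/- replicate 2 the lowest for 9, while WT replicate 2 was the highest of its group for 6 and WT replicate 1 the lowest for 6. None of the other 6 libraries was the highest or the lowest of its group for more than 2. After each gene was centred on its genotype means, 39 of the 45 pairs of glycolysis genes had a positive Pearson r over the 10 libraries, with a median of 0.54. The 15 pairs among Aldoa, Gapdh, Pgk1, Eno1, Pkm and Ldha ranged from 0.59 to 0.93, whereas Pfkfb3 had a median r of -0.19 with the other genes. These correlations are descriptions over libraries that share their scaling.

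The genes most like the mean profile of the 10, among 6871 genes outside all lists with a mean of at least 10 TPM, were Cideb (r = 0.99), Atl2, Ube2d3, Npc1 and Oxsr1 (each r = 0.97, n = 10 libraries). The least like were mt-Nd1 (r = -0.93) and mt-Nd2 (r = -0.90), which are mitochondrially encoded. Gm29216, Gm10925 and Gm28437 lay between them, at WT means of 18510, 25970 and 32820 TPM. Mitochondrially encoded genes made up 26.5% of TPM in WT replicate 1 and 22.4% in RhoB-/- replicate 2, the 2 libraries with the most of the lowest values, and 10.3% and 12.1% in RhoB-/- replicates 3 and 5. Only genes placed on the mitochondrial chromosome were counted, in these shares and those below. Any reads given to nuclear copies of them stayed in the rest of the library.

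The 10 glycolysis genes together were at 4719, 5633, 5344, 5199 and 5087 TPM in WT and 6047, 5497, 6859, 6118 and 7218 TPM in RhoB-/- libraries. RhoB-/- replicate 2 fell within the WT range. As a share of the TPM outside mitochondrially encoded genes, the sum was 0.647%, 0.690%, 0.668%, 0.654% and 0.647% in WT and 0.759%, 0.716%, 0.770%, 0.744% and 0.832% in RhoB-/- libraries, and on this scale every RhoB-/- library was above every WT library. With mitochondrially encoded genes left out of the total, Hk2, Eno1, Pkm and Ldha were again those called, at log2 fold changes of 0.98, 0.26, 0.27 and 0.40, and the median of all genes was -0.20.

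**Figure D5:**
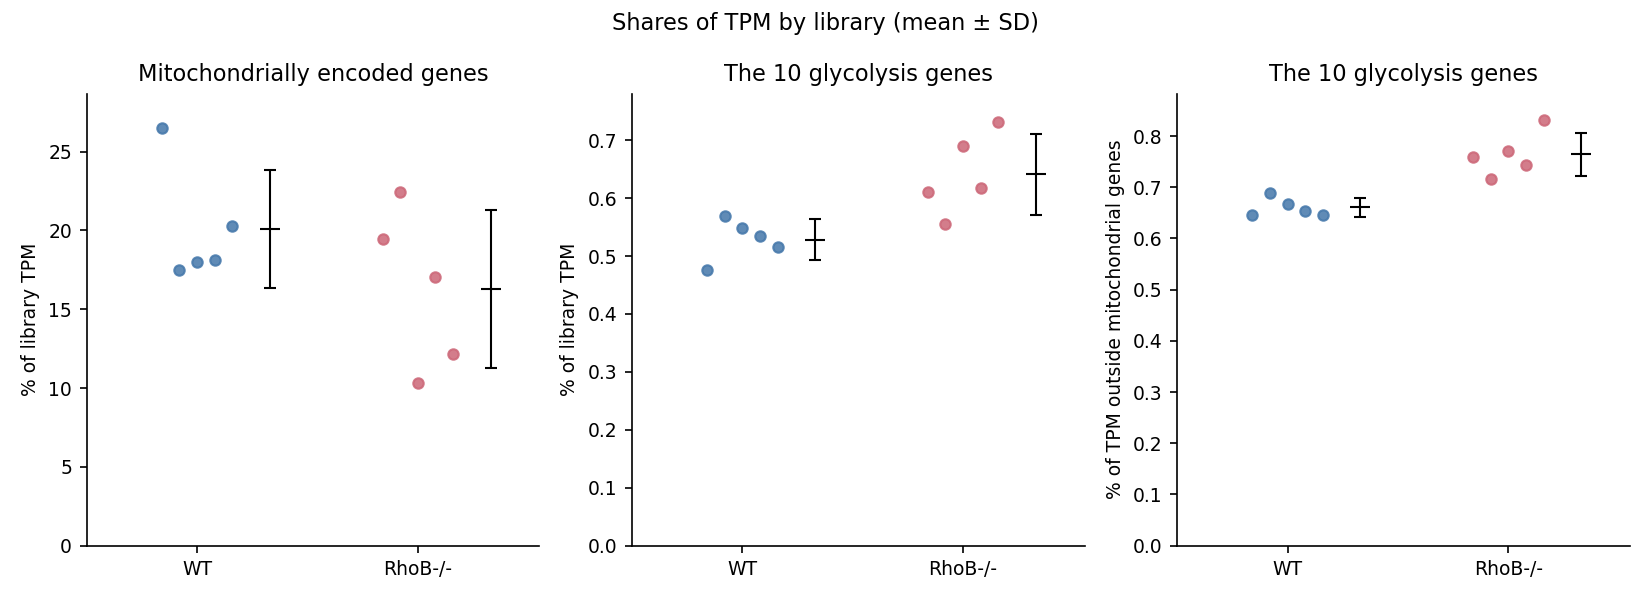
Percent of library TPM from mitochondrially encoded genes (left) and from the 10 glycolysis genes (middle), and the glycolysis genes as a percent of the TPM outside mitochondrially encoded genes (right), with 1 point per mouse and the mean ± SD. The glycolysis share overlaps between genotypes in the middle panel, where RhoB-/- replicate 2 at 0.555% lies below WT replicate 2 at 0.569%, and does not in the right panel.

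Of 19 other glycolysis enzymes listed, 13 passed the filter, 3 rose and 4 fell, with a median log2 fold change of -0.14. Over all tested genes, 7.73% were called higher and 13.5% lower, and the median was -0.13. Besides Hkdc1 and Pfkp, Gpi1, which turns glucose-6-phosphate into fructose-6-phosphate, rose from 312.0 ± 46.1 to 445.2 ± 82.7 TPM (log2 fold change 0.51, adjusted p = 0.0332), but the adjusted p was 0.0753 without the library labelled RhoB-/- replicate 5. Besides Pfkm and Ldhb, those that fell were Ldhd, which acts on D-lactate (log2 fold change -0.47, adjusted p = 0.0244), and Adpgk, an ADP-dependent glucose kinase named here outside the rule (log2 fold change -0.40, adjusted p = 0.0415). Tpi1, Pgam1, Bpgm, Eno3 and Pklr, all above 10 TPM, were not called, with log2 fold changes of 0.18, 0.03, 0.35, -0.14 and -0.15, and the signs of Pgam1 and Eno3 turned under other settings.

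Of 12 glucose and lactate transporter genes, 6 passed the filter, 2 rose and none fell, beside 7.73% called higher and 13.5% lower over all tested genes. Slc2a1, the glucose transporter GLUT1, was at 35.6, 46.7, 70.6, 44.6 and 71.8 TPM in WT and 86.6, 74.3, 76.9, 80.0 and 124 TPM in RhoB-/- libraries, with no overlap (log2 fold change 0.73, SE 0.21, adjusted p = 0.0277). As with Hk2, WT replicates 3 and 5 were the highest of their group. Slc16a3, the lactate exporter MCT4, was at 1.61, 0.91, 1.99, 0.75 and 2.43 TPM in WT and 8.65, 4.02, 4.94, 6.13 and 10.03 TPM in RhoB-/- libraries. The groups did not overlap, and its log2 fold change was 1.60 (SE 0.25, adjusted p = 0.00132). Slc16a1, which carries butyrate and lactate as MCT1 and was the more abundant of the pair at 69.9 to 128 TPM, was not called (log2 fold change -0.25, 95% interval -0.61 to 0.10). Bsg, the partner of both carriers, and Slc5a1, the sodium-coupled glucose transporter, were not called either, with log2 fold changes of 0.17 and 0.21.

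The opposite and neighbouring routes are read against the 7.73% of all tested genes called higher and the 13.5% called lower. Of 7 tested gluconeogenesis genes, G6pc3, a widely expressed glucose-6-phosphatase, fell from 37.1 to 21.8 TPM (log2 fold change -0.74, adjusted p = 0.00113) and Pck2, the mitochondrial PEP carboxykinase, fell with a log2 fold change of -0.47 (adjusted p = 0.0495), and none rose. The list for the step from pyruvate to acetyl-CoA held 14 genes, among them regulators that activate the step and others that inhibit it. Of these, Pdha1, a subunit of pyruvate dehydrogenase, and Pdp2, the phosphatase that activates it, fell (log2 fold changes -0.31 and -0.73, adjusted p = 0.0441 and 0.0195), and none rose. Of 10 pentose phosphate pathway genes, Taldo1 rose (log2 fold change 0.39, adjusted p = 0.0428) and Prps2 fell (log2 fold change -0.50, adjusted p = 0.0261). The medians of the 3 lists were -0.41, -0.24 and -0.02, against -0.13 for all tested genes.

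Of 18 targets of the hypoxia-inducible factor HIF-1 outside glycolysis, 4 rose and 2 fell. These counts, and those of the transcription factors and their regulators below, stand beside 7.73% of all tested genes called higher and 13.5% called lower. Egln3, a prolyl hydroxylase, was at 11.6 to 15.5 TPM in WT and 17.5 to 45.5 TPM in RhoB-/- libraries (log2 fold change 1.16, adjusted p = 0.00261), and Higd1a, Ero1l and P4ha1 rose with log2 fold changes of 0.64, 0.61 and 0.58. Higd1a and P4ha1 were not called without the library labelled RhoB-/- replicate 5 (limma adjusted p = 0.0627 and 0.0669). Ddit4, an inhibitor of mTORC1, fell with a log2 fold change of -1.36 (adjusted p = 3.9e-05), and Hilpda, a lipid droplet protein, with one of -0.45 (adjusted p = 0.0195). A further list held 14 tested genes, transcription factors that act on glycolysis genes and regulators of such factors. Of these, Max, the partner of Myc, rose (log2 fold change 0.77, adjusted p = 0.00264), as did Esrra (log2 fold change 0.34, adjusted p = 0.0349). Mlxipl, the glucose-sensing factor ChREBP, fell (log2 fold change -0.76, adjusted p = 0.0195). Hif1a and Myc, named here outside the rule for named genes, had log2 fold changes of 0.28 and -0.30 and were not called.

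Reference genes and cell type markers were read beside these results. Of 12 housekeeping genes, B2m and Actb rose and Tfrc and Rplp0 fell, and Hprt had a log2 fold change of 0.00. The ratio of Hk2 to Hprt TPM was 0.802 to 1.58 in WT and 1.59 to 3.10 in RhoB-/- libraries, and that of Ldha to Hprt was 10.4 to 13.0 and 14.0 to 18.9, both without overlap. Relative to Gapdh, Hk2 was at 2.48% to 5.48% and 5.27% to 8.13% and Ldha at 33.4% to 45.1% and 41.2% to 49.7%, and both overlapped. Of 8 epithelial markers 3 rose and none fell, and all 8 log2 fold changes were positive, with a median of 0.29. The median of the 10 glycolysis genes was 0.27. Of 7 tested colonocyte markers 3 rose, of 8 goblet cell markers 3 rose, of 4 tested tuft cell markers 2 rose, of 6 enteroendocrine markers 3 fell, of 8 crypt markers 4 fell, and of 12 proliferation markers 5 fell. All 12 proliferation markers had a negative log2 fold change, with a median of -0.61, and so did 7 of the 8 crypt markers, with a median of -0.40. Positive log2 fold changes made up 34.6% of all tested genes. Over all tested genes, 7.73% were called higher and 13.5% lower. Summed proliferation markers were at 384 to 517 TPM in WT and 195 to 512 TPM in RhoB-/- libraries, and summed colonocyte markers at 13380.0 to 20030.0 and 15790.0 to 28470.0 TPM. Their part in the glycolysis results was not tested.

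Calls outside the 10 genes also differed in how far they rested on single libraries. Of 27 called genes of these lists, named by rule, 11 kept an adjusted p below 0.05 in each of the 10 fits that left out 1 library, and among them were Hkdc1, Pfkp, Pfkm, Slc16a3, G6pc3, Egln3, Ero1l, Ddit4 and Max. Without the library labelled RhoB-/- replicate 5, 12 of the 27 were no longer called. These were Gpi1, Ldhb, Slc2a1 (adjusted p = 0.0642), Pck2, Pdha1, Taldo1, Prps2, Higd1a, P4ha1, Esrra, Actb and Rplp0, with adjusted p from 0.0537 to 0.106. Each of these 12 also lost the call without other libraries. Ldhb and Pck2 kept it in only 1 of the 10 fits, and Higd1a, which kept it most often, in 6. The remaining 4, Ldhd, Hilpda, Mlxipl and Pdp2, lost the call without WT replicate 4, which had the same effect on Ldhd as leaving out WT replicate 5 or RhoB-/- replicate 1 and on Mlxipl as leaving out WT replicate 2, with adjusted p of at most 0.0680.

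Promoter sequence was read for the 10 genes because 4 of them were called together and because HIF-1 and Myc recognise short E-box-like motifs in such genes. The 250 bases before the most upstream RefSeq start (GRCm38.p6) were searched for ACGTG on either strand. Of 32851 mouse windows of this length, 16.6% hold it, but these cover every listed start and not the most upstream alone. The motif was found in the most upstream windows of Hk2 and Ldha, which were called, and of Pfkfb3 and Pgk1, which were not. A match is a description of letters and shows no binding. Those of Hk2, Ldha, Pgk1 and Eno1 are shown, each 5′ to 3′ on the strand of the gene, to set called genes with and without matches beside one that was not called, with ACGTG or its reverse complement CACGT in capitals.
Hk2, chr6:82774455-82774704, minus strand: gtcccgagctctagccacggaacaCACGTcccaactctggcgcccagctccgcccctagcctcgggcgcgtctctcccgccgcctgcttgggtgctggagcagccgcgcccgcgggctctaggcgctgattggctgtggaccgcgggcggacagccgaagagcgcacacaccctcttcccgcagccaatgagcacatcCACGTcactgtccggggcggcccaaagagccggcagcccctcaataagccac
Ldha, chr7:46845554-46845803, plus strand: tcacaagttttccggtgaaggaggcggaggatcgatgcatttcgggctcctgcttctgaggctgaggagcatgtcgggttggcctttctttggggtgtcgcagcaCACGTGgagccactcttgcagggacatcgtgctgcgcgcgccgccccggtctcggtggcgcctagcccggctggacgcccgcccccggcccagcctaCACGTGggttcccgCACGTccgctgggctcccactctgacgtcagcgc
Pgk1, chrX:106186850-106187099, plus strand: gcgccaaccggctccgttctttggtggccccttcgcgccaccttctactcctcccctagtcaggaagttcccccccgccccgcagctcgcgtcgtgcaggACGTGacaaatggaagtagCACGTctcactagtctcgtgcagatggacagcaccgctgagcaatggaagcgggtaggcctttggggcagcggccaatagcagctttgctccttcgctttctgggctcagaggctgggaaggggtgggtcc
Eno1, chr4:150236458-150236707, plus strand: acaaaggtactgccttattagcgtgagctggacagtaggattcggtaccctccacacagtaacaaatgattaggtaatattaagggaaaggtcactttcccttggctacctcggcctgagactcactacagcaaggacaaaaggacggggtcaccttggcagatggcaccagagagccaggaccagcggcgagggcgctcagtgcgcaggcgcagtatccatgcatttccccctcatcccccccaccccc

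Matches in the Hk2 window began 226 and 52 bases before the start. The Ldha window lies inside the gene as GENCODE annotates it but outside its exons, and held matches 145, 144, 48, 47 and 34 bases before the start, of which the first 4 came from 2 copies of the palindrome CACGTG, each counted on both strands. That palindrome was present in 6.02% of windows. The Pgk1 window held matches 150 and 131 bases before the start, although Pgk1 was not called, and the Eno1 window held none, although Eno1 was called. The related form GCGTG, which HIF-1 also recognises and which 28.2% of windows hold, was found in 3 of the 10 most upstream windows, those of Eno1, Pfkl and Gapdh. With either form counted, 7 of the 10 most upstream windows held a match, beside 38.6% of the windows at every listed start, which are an unlike set. When the other annotated starts were included, 6 of the 10 genes held ACGTG in any of their 18 windows. The genes added in this way were Pkm, which was called, and Aldoa, which was not. No share of all genes was counted in this way, and the shares of single windows above do not compare with it.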

How the data were processed

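IECs were released from the colon with EDTA and DTT, RNA was extracted with TRIzol, and libraries were sequenced as paired-end reads. The authors used SeqPrep and Sickle for trimming, HISAT2 for alignment, StringTie for assembly and RSEM for gene levels. Per the labels the build was GRCm38.p6 and edgeR was also named, and tool versions and the annotation release are not given in the sources used here. The deposited values are TPM per gene and library, so the authors' scaling sets each gene relative to all others, and no count test or depth could be had from them.

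Groups were taken from the labels (5 WT, 5 RhoB-/-). Genes with a mean of at least 1 TPM were fitted with limma 3.58.1 in R 4.3.3 (trend, log2(TPM + 1), no covariate, two-sided, Benjamini-Hochberg over 12870 genes), so fold changes of low genes are understated. The procedure was tested on simulated data. The smallest p of the exact permutation test was 0.00794. Positions came from GENCODE M21 and promoters from RefSeq, in which all 10 genes were found. Same-numbered replicates did not deviate together (r from -0.087 to 0.072), so the numbers were not used as pairs. Named were the 10 glycolysis genes, called genes of the lists (at most 6 per list), glycolysis, Pfkfb and transporter genes of at least 10 TPM, and the 5 genes most and least like the mean profile. Rhob, Hif1a, Myc, Hk3 and Adpgk were named outside this rule. The genes, lists and tests were chosen with earlier results of these data known. Some genes of the lists are not reported here, and list counts and isozyme sums leave them out. Alternatives were another pseudocount, no filter or one of 5 TPM, quantile normalization, library centring, totals without mitochondrially encoded genes, no trend, a replicate block, leaving out each library and exact tests.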

Additional observations from a re-analysis of the deposited data

Results flagged for a closer look

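In 5 of 98 groups of 5 libraries, over 49 genes, the highest library lay far from the other 4 by Dixon's ratio, where chance gives about 4.9. For Slc2a1, the library labelled RhoB-/- replicate 5 was at 123.8 TPM, against 74.3 to 86.6 TPM in the other RhoB-/- libraries. For Rhob, the same library was at 110.9 TPM, against at most 0.57 TPM. RhoB-/- replicate 3 was at 26.3 TPM for G6pc3 and at 1279 TPM for Rplp0, each above the other 4 RhoB-/- libraries. For Hilpda, WT replicate 4 was at 10.7 TPM. None of these 5 values was that of 1 of the 10 glycolysis genes.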

How the results depend on the processing

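Hk2 was called in the 18 alternative limma fits, with log2 fold changes from 0.91 to 1.21 and adjusted p from 0.00689 to 0.0381, Ldha in 11, Pkm in 9 and Eno1 in 6. The number of the 10 glycolysis genes called higher (4) was 1 without a filter on low TPM, 7 with library centring, 2 with the replicate block and 1 to 4 when 1 library was left out, and none was called lower in any of these. In the pathway lists, 14 higher calls became 8 without a filter, 24 with centring and 7 to 15 when 1 library was left out, and 14 lower calls became 8 without a filter, 25 without mitochondrially encoded genes, 7 with the replicate block and 4 to 21 when 1 library was left out. Marker lists had 14 to 22 higher and 5 to 20 lower calls when 1 library was left out. Over all genes, 995 higher calls became 918 of 28114 genes without a filter and 836 with the replicate block. They became 1587 with quantile normalization, 2010 with centring and 719 to 1154 when 1 library was left out. The 1734 lower calls became 1197 without a filter, 1104 with a filter of 5 TPM and 3729 without mitochondrially encoded genes. They became 1059 with the replicate block and 853 to 2868 when 1 library was left out.

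The exact permutation test called 0 genes anywhere, because its smallest adjusted p is 0.0547, and at an unadjusted exact p below 0.05 it gave 5 of the 10 glycolysis genes as higher and 0 as lower, against 10.9% and 22.9% of all tested genes. Signs turned for Pfkl with centring (0.056) and when 1 library was left out (-0.149 to 0.035, above 0 without WT replicate 4, at 0.013, or RhoB-/- replicate 2). They also turned for Pgam1 with quantile normalization (-0.0704), without mitochondrially encoded genes (-0.046) and with 1 library left out (-0.021 to 0.091, below 0 without WT or RhoB-/- replicate 3), for Eno3 with 1 library left out (-0.276 to 0.045, above 0 without WT replicate 2), and for Pfkfb4 likewise (-0.063 to 0.22, below 0 without RhoB-/- replicate 4 or 5). The replicate numbers mark no shared litter or batch in the labels. The cause of these shifts was not tested, and TPM keeps no depth, so the precision of low genes such as Pfkfb3 is limited to the spread between mice.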
